A study of Mus musculus with 2 samples.

Results

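The clustered histone genes of the mouse were examined in DNase-seq data from the adult cortex. They were taken as all autosomal protein-coding genes of GENCODE M21 (mm10) whose symbols start with Hist1h, Hist2h, Hist3h or Hist4h, without use of any measured value. The rule gave 67 genes of 21755 protein-coding genes on chromosomes 1 to 19 and X: 6 genes for the linker histone H1, 18 for H2A, 18 for H2B, 12 for H3 and 13 for H4. The Hist1 cluster on chromosome 13 held 54 of them, Hist2 on chromosome 3 held 10, Hist3 on chromosome 11 held 2 and Hist4 on chromosome 6 held 1. The genes H3f3a, H3f3b, H2afz and H1f0, which encode replacement histones made outside S phase, served as the comparison.

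DNase-seq maps open chromatin by sequencing the ends that the nuclease DNase I leaves where it reaches DNA. It had been applied to the left cerebral cortex of B6CASTF1/J males, first-generation hybrids of a laboratory strain and a castaneus strain, aged 8 to 10 months. There was 1 group of 2 libraries, labelled biological replicates 1 and 2, without a treatment or a second genotype. The labels give them 1 donor identifier but separate biosample identifiers, so the SD over the libraries may leave out variation between animals. Only peaks, footprints and FDR intervals were used, and the 2 parental alleles were not separated.

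Histones package DNA into nucleosomes, with H2A, H2B, H3 and H4 in the core particle and H1 on the linker. The clustered genes supply histones during DNA replication. They are short, mostly lack introns, and their transcripts end in a conserved stem-loop that is bound by the protein SLBP in place of a poly(A) tail. Replacement genes carry introns or poly(A) signals and keep supplying histones in cells that no longer divide, as most neurons of the adult cortex do. Transcription of the clustered genes is organised by NPAT in nuclear histone locus bodies. H4 promoters carry a conserved element bound by the factor HINFP, many H2B promoters an octamer (ATTTGCAT) bound by POU2F1, and many core histone promoters CCAAT boxes bound by NF-Y.

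The promoter sequences that mark the types are shown first, since the footprints below refer to them. They came from the RefSeq promoter table (GRCm38.p6), which gives 250 bases before to 50 bases after a start and held 62 of the 67 genes. The H4 promoters are printed around the letters GGTCCG, a core of the H4 element that was picked after the sequences had been seen. Capitals mark GGTCCG and TATAAA, and all lines run 5′ to 3′ on the strand of the gene.
Hist1h4c (chr13:23698469-23698538, minus strand): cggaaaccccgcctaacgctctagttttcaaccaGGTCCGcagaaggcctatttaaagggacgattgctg
Hist1h4d (chr13:23581487-23581556, plus strand): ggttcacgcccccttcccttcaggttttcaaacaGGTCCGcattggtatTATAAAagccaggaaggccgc
Hist1h4i (chr13:22041373-22041442, minus strand): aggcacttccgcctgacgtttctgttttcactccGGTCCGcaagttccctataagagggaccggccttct
Hist4h4 (chr6:136804428-136804497, minus strand): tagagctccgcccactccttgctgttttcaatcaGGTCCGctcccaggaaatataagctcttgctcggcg
Hist1h4k (chr13:21750550-21750619, minus strand): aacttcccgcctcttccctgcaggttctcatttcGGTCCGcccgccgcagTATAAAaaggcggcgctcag
Hist1h4f (chr13:23551679-23551748, minus strand): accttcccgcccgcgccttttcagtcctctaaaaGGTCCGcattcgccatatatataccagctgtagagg
Hist1h4m (chr13:21811665-21811734, plus strand): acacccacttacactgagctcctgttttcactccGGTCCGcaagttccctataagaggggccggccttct
GGTCCG was present in 11 of 12 H4 promoters, always on the strand of the gene, and in 2 of 50 promoters of the other types. Over 17274 protein-coding genes with an entry, 12.1% held it on either strand. Hist1h4a, which encodes H4, was the H4 gene with an entry but without GGTCCG.

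The other types are shown by 1 H2A promoter that faces an H2B gene, 3 H1 promoters and 1 H3 promoter. Capitals mark CCAAT, the octamer and TATAAA, each on either strand, and in the H1 genes also AAACACA, an H1 promoter element whose letters were also picked after the sequences had been seen.
Hist1h2ac (chr13:23683960-23684179, minus strand): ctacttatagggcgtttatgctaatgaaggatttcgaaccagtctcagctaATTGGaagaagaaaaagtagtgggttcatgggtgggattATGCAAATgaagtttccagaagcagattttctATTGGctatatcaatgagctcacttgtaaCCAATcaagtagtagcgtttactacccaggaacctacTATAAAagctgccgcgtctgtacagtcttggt
Hist1h1e (chr13:23622574-23622688, minus strand): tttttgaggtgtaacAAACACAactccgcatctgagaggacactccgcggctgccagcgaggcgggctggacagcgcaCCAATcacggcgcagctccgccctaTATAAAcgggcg
Hist1h1b (chr13:21780641-21780755, minus strand): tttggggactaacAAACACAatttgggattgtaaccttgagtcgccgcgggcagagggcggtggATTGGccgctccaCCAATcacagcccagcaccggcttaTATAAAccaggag
Hist1h1t (chr13:23695681-23695795, plus strand): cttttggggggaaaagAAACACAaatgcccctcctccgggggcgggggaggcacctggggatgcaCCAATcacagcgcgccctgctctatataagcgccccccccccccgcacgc
Hist1h3h (chr13:21717513-21717612, plus strand): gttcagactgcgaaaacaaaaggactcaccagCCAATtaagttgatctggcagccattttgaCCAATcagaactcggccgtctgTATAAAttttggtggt
CCAAT occurred in all 50 promoters of types other than H4 that had an entry, and in 3 of 12 H4 promoters, against 42.7% of all genes. At least 2 matches were found in 44 members, against 14.8% of all genes. The octamer ATTTGCAT was found in 7 of 18 H2A and 7 of 16 H2B promoters and in none of the H1, H3 or H4 promoters, against 1.92% of all genes. It lay on the strand of the gene in all 7 H2B matches and on the opposite strand in all 7 H2A matches. These matches are 11 distinct sites, because some octamers lie between an H2A and an H2B gene and count for both. At such a site the strands of the 2 matches are opposite by the arrangement of the genes. AAACACA was found in 5 of 6 H1 promoters, against 7.24% of all genes, and TATAAA in 56.5% of members against 14.9%. A match is a run of letters and no measure of binding.

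The promoters of members were poorer in G and C than those of most genes. Their median GC content was 45.3%, against 56.7% over all genes and 72.7% for the 4 replacement genes. The median ratio of observed to expected CpG was 0.746 in members, 0.574 over all genes and 1.02 in the replacement genes.

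The stem-loop at the end of the messenger RNA is shown for 3 genes, with the 4 loop bases in capitals.
Hist1h2ac stem-loop (chr13:23683477-23683492, minus strand): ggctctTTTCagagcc
Hist1h4c stem-loop (chr13:23698089-23698104, minus strand): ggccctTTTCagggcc
Hist1h1t stem-loop (chr13:23696525-23696540, plus strand): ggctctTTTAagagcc
A 16-base pattern with this loop and 3 free positions was searched within 150 bases after the annotated end of the coding sequence. Where transcripts differ, the farthest end was used. It was found in 58 of 67 members and in 60 of 21755 genes in all (0.276%). The 2 other genes were H2afx and H2bfm, and none of the 4 replacement genes had it. Among the members' matches 5 distinct sequences occurred, the first one printed in 38 members. The matches lay 24 to 61 bases from the annotated coding end (median 34). All but 3 positions are fixed by the pattern, so the number of distinct sequences does not measure how much the stem-loop varies. A stem-loop that differs at a fixed position, or lies beyond 150 bases from the coding end used, counts as absent. The 9 members without a match were Hist1h2an, Hist1h2bp, Hist1h2bq, Hist1h2br, Hist1h3g, Hist1h4a, Hist1h4b, Hist1h4j and Hist2h2be. A narrow promoter peak in both libraries was present in 45 of the 58 genes with the pattern and in 7 of the 9 without it.

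Most clustered histone genes had an open promoter in the adult cortex. A narrow peak, which is a peak of the stricter of the deposited lists, overlapped 1000 bp on either side of a transcript start in both libraries for 52 of 67 members (77.6%). The share over all 21755 protein-coding genes was 55.3%. With the broader list it was 56 members, against 61.3% of all genes, and a footprint, a short stretch protected from DNase I, lay in the window in both libraries for 55 members, against 59.5% of all genes. Neighbouring members share windows, so these genes are not independent: the windows held 65 and 66 distinct narrow peaks in replicates 1 and 2, of which 24 and 23 touched 2 or 3 members. Of the distinct peaks, 89.2% and 90.9% overlapped a peak of the other library. Accessibility in few cells and weak accessibility in all cells cannot be told apart in bulk tissue, and a peak does not measure transcription.

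The strength of a peak is its deposited signal value, whose normalization was not stated. Each gene was given its strongest narrow peak. Among the 52 members with a peak in both libraries the median strength was 2.47 in replicate 1 and 2.24 in replicate 2, against 2.74 and 2.39 over the 12039 genes with one. By mean strength, 21 of the 52 members lay above the median of all such genes. The libraries ranked the members alike, with a Spearman correlation of 0.960 across 52 genes that share peaks and libraries, against 0.945 across all genes. Of the 12 members in the upper quartile of all such genes, 8 encode H4.

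**Figure D1:**
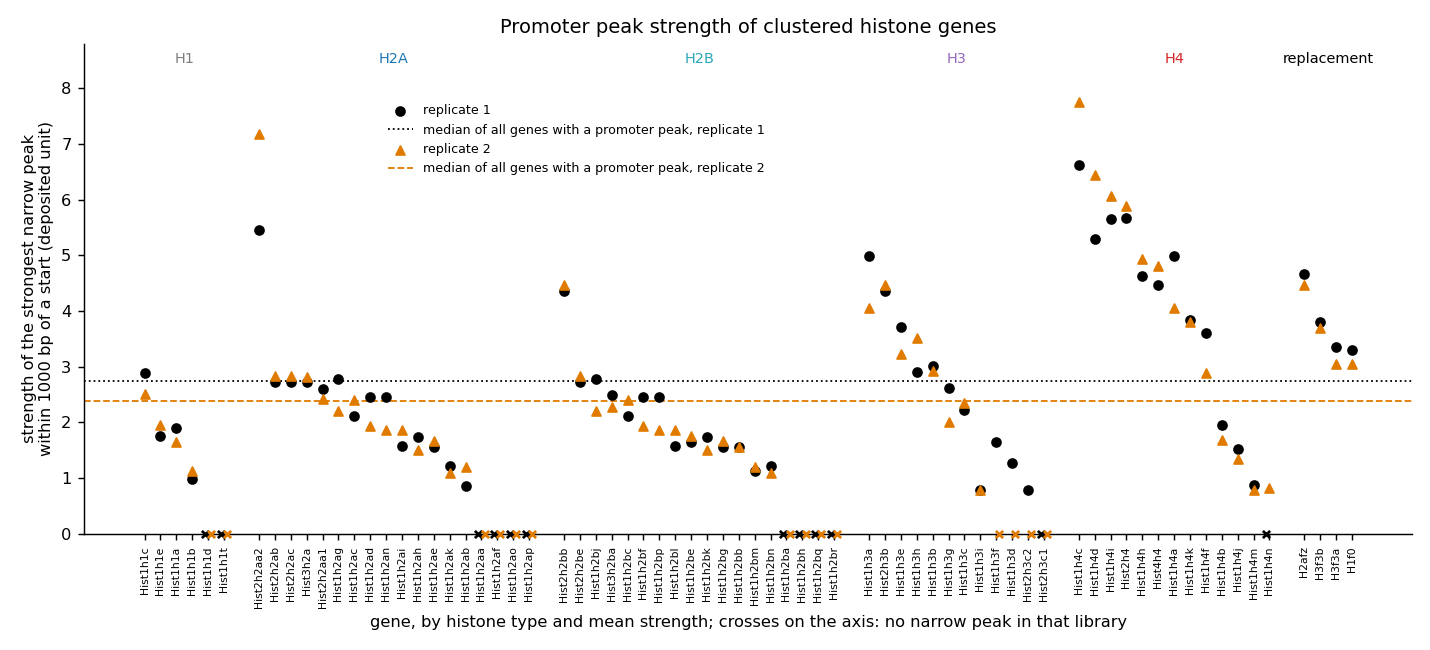
Strength of the strongest narrow promoter peak (vertical axis, deposited unit) of each of the 67 members and 4 replacement genes, in replicate 1 (circles) and replicate 2 (triangles), by histone type. Crosses on the axis mark a library without a narrow peak, and the horizontal lines are the medians over all genes with a promoter peak, 2.74 and 2.39. H4 genes reach 6.63 and 7.76, and most H1, H2A and H2B genes lie near or below the lines.

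H4 genes had the strongest promoters of the clusters. H4 forms, with H3, the tetramer at the heart of the nucleosome. A narrow peak was present in both libraries at 12 of 13 H4 genes, with a median strength of 4.55 in replicate 1 and 4.43 in replicate 2. By mean strength, 8 of the 12 lay in the upper quartile of all genes with a promoter peak. The median of the mean strengths was 4.58 for H4 and 2.23 for the other members, a ratio of 2.06. The ratio was between 1.98 and 2.12 under the 10 alternatives computed for it.

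Hist1h4c was the strongest member, at 6.63 in replicate 1 and 7.76 in replicate 2 (7.20 ± 0.795, SD, n = 2), which is the 99.2th percentile of genes with a promoter peak. Among the H4 genes, Hist1h4d was at 5.30 and 6.44, Hist1h4i at 5.66 and 6.06, and Hist2h4 at 5.67 and 5.89. Both values of Hist1h4c lay above those of these genes, whose own ranges overlapped. Hist1h4h was at 4.63 and 4.94, and Hist4h4, the single gene of its locus, at 4.46 and 4.81. The window of Hist1h4h also holds a tRNA gene. Hist1h4a, at 4.99 and 4.06, was one of the H4 genes with a lower value in replicate 2.

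The other H4 genes ranged from intermediate to weak. Hist1h4k was at 3.84 and 3.81, and Hist1h4f at 3.60 and 2.88. Hist1h4b was at 1.95 and 1.68, Hist1h4j at 1.52 and 1.34, and Hist1h4m at 0.872 and 0.778, all below the median of all genes in both libraries. Hist1h4n had a narrow peak in replicate 2 only, of 0.815, and a peak of the broader list at 0.540 in replicate 1. Few promoter words of Hist1h4m and Hist1h4n are unique in the genome (5.56% each), and the printed promoter of Hist1h4m holds GGTCCG like those of the strong genes.

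The strongest peaks of H4 genes were often centred near the start. The midpoint of the strongest peak lay within 50 bp of the gene's 5′ end in both libraries for 9 of 12 H4 genes, against 8 of 40 members of other types. The share over all genes was not computed. Of the 40, 18 lie in pairs that start away from each other and share 1 strongest peak. Those starts are at least 176 bp apart, so the midpoint cannot lie within 50 bp of both. Some others count a neighbour's peak, such as Hist1h3a, with midpoints at 935 and 1045 bp. The H4 peaks were 145 to 280 bp wide in replicate 1 and 181 to 400 bp in replicate 2. Peaks of the other types spanned 80 to 840 bp and 60 to 660 bp.

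Footprints in H4 promoters often lay over the printed element. In the 50 bp before the 5′ end, the 12 H4 genes held 1.08 footprints per gene in each library, against 0.746 and 0.727 over all genes with a promoter peak. In replicate 2 the 50 bp before that held more, 1.17 per gene, and the 50 bp after the 5′ end held 0.833. Of 10 GGTCCG matches of H4 genes inside a narrow peak, 8 overlapped a footprint in replicate 1 and 8 in replicate 2 (80.0% in each), 6 of them in both. Over all genes, 27.3% of 1229 matches and 28.1% of 1249 matches in narrow peaks did so. At Hist1h4c the footprint over GGTCCG was 31 bp wide in replicate 1 and 35 bp in replicate 2, at Hist1h4d 24 and 25 bp, at Hist4h4 26 and 25 bp, and at Hist1h4k 33 and 24 bp. Hist1h4i, at 23 and 33 bp, and the weak Hist1h4m, at 19 and 9 bp, also had one in each library. Hist1h4j, whose match lay in a narrow peak in each library, had none, Hist1h4f had one in replicate 2 only and Hist1h4h in replicate 1 only. Strong peaks can hold more footprints: in peaks of strength 4 or more, 5 of 5 and 4 of 5 H4 matches overlapped a footprint, against 36.4% of 302 and 45.0% of 171 matches of all other genes. Neither comparison was matched for position. Over all genes footprints were sparser further upstream, at 0.234 and 0.261 per gene from -250 to -200 bp. The part of position in these shares was not tested.

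For the other motifs, the members' shares were not above those of all genes in both libraries. A footprint overlapped 23.7% of 59 and 27.4% of 62 CCAAT matches in members' narrow peaks, against 30.2% and 30.3% over all genes. For TATAAA it was 7 of 19 (36.8%) and 9 of 18 (50%), against 37.8% and 36.4%. At H4 genes, 3 of 3 and 4 of 4 TATAAA matches in narrow peaks were covered, which are few sites. None of 8 ATTTGCAT matches in replicate 1 and none of 4 in replicate 2 was covered, against 14.4% and 17% over all genes, numbers too small to show a difference.

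**Figure D2:**
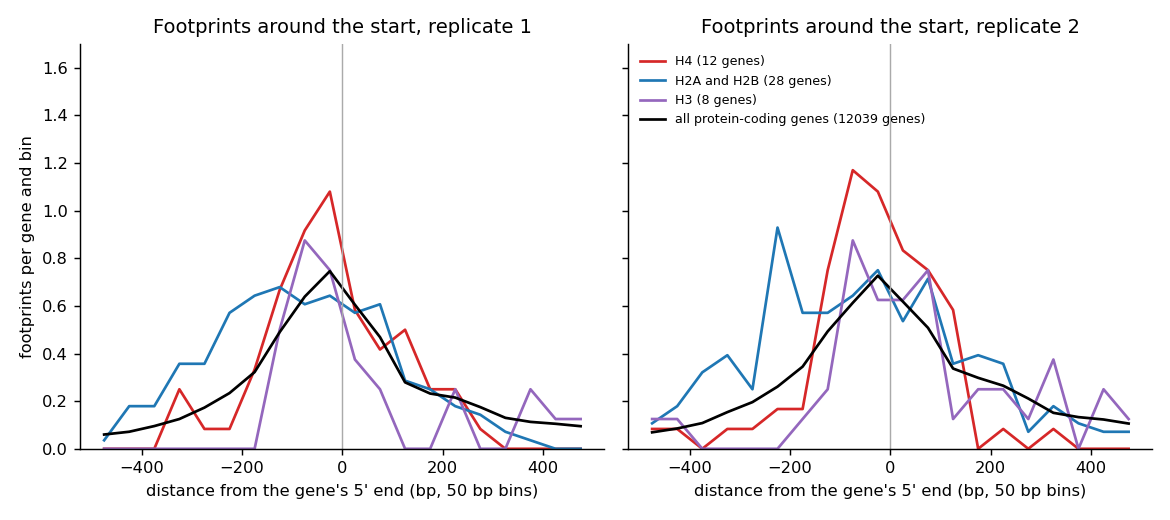
Footprints per gene in 50 bp bins (vertical axis) by distance from the gene's 5′ end (horizontal axis, bp, negative upstream) for genes with a narrow promoter peak in both libraries, 1 panel per library. H4 genes reach 1.08 in the bin before the 5′ end in each library, H2A and H2B genes spread further upstream, and the black line is all 12039 genes.

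H2A and H2B, which form the dimers of the core particle, had weaker peaks than H4. Each had a narrow peak in both libraries at 14 of 18 genes. The median strength was 2.45 and 2.07 for H2A, and 1.92 and 1.86 for H2B. By mean strength, 4 of the 14 H2A genes and 2 of the 14 H2B genes lay above the median of all genes. Hist2h2aa2 stood apart, at 5.45 in replicate 1 and 7.18 in replicate 2 (6.32 ± 1.23, SD, n = 2), with a peak 180 bp wide in each library. Its near copy Hist2h2aa1 was at 2.60 and 2.42. Hist1h2ab was the weakest H2A gene with a peak in both, at 0.862 and 1.19.

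Many H2A and H2B genes are transcribed away from each other out of a shared stretch of DNA. There were 13 head-to-head pairs, 12 of them of an H2A with an H2B gene, with starts 176 to 306 bp apart in those 12 (median 260). A narrow peak touched the stretch between the starts in both libraries in 8 of the 12. It covered both starts in both libraries in 1 pair, Hist1h2bf and Hist1h2ad, at 2.45 and 1.94. The strongest stretch in replicate 1 was that of Hist1h2ag and Hist1h2bj, at 2.78 and 2.21, and in replicate 2 that of Hist2h2ac and Hist2h2be, at 2.73 and 2.83. The stretch whose letters are printed, between Hist1h2ac and Hist1h2bc, had 2 peaks in each library, the stronger at 2.11 and 2.40. Between Hist1h2ak and Hist1h2bn a peak touched the stretch in replicate 2 only, at 1.09. By the 1000 bp promoter window, 18 of 26 paired members had a narrow peak in both libraries, against 34 of 41 other members.

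The 4 pairs without a peak in either library were of different kinds. Hist1h2bq with Hist1h2ao and Hist1h2ap with Hist1h2br lie in a stretch that occurs more than once in the genome. Hist1h2ba with Hist1h2aa is the pair made in the testis. Hist1h2bh with Hist1h3f, the only H2B and H3 pair, has its starts 660 bp apart.

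H3 genes fell between H4 and the H2 types. A narrow peak was present in both libraries at 8 of 12, with a median strength of 2.96 and 3.08. That median includes 2 peaks that belong to a neighbour: the peak of Hist1h3a, at 4.99 and 4.06, lies at the start of Hist1h4a about 1 kb away, and that of Hist2h3b, at 4.36 and 4.46, at Hist2h2bb. With the peak nearest to each start, the H3 median was 2.48 and 2.47, while that of H4 did not move. Hist1h3i had the lowest strength of any member with a peak in both libraries, at 0.787 and 0.778. The printed Hist1h3h was at 2.90 and 3.51, above the median of all genes in both.

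3 H3 genes had a narrow peak in replicate 1 only. It was 0.787 at Hist2h3c2, 1.64 at Hist1h3f and 1.27 at Hist1h3d, and each had a weaker peak of the broader list in replicate 2, at 0.556, 1.39 and 0.926. All 3 thus had a peak in each library on the broader list. The lowest FDR in the window in replicates 1 and 2 was 0.000277 and 0.0326 at Hist2h3c2. It was 1.12e-06 and 0.00315 at Hist1h3f, and 7.66e-05 and 0.0025 at Hist1h3d. The midpoint of the narrow peak lay at -529 bp from the 5′ end at Hist2h3c2, at 525 bp at Hist1h3f and at 15 bp at Hist1h3d. Why the second library lacked a narrow peak was not tested.

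H1 genes, which encode the linker histones, were about as weak as H2B. A narrow peak was present in both libraries at 4 of 6, with a median of 1.82 and 1.80. Hist1h1c was at 2.89 and 2.51, Hist1h1e at 1.75 and 1.95, Hist1h1a at 1.89 and 1.64, and Hist1h1b at 0.986 and 1.13. In replicate 1 the strongest peak of Hist1h1c lay 932 bp downstream of its start. In replicate 2 that of Hist1h1b lay 984 bp downstream, and the peak nearest to its start was at 0.778. Hist1h1d had no narrow peak around its annotated start, which lies 1828 bp before its coding sequence. Around the coding start it had one in each library, at 1.85 and 2.31 (a window chosen after this was seen). The sixth H1 gene is Hist1h1t.

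The testis histone genes had no sign of an open promoter. Hist1h1t encodes the linker histone of spermatocytes, and Hist1h2aa and Hist1h2ba the H2A and H2B variants of the male germ line. None had a narrow peak, a peak of the broader list, a footprint or an interval of listed false discovery rate (FDR, at most 0.05) in its window in either library. The promoter of Hist1h1t is printed above: it holds AAACACA and CCAAT like those of Hist1h1e and Hist1h1b, which were open, and its 31-base words are all unique in the genome. The nearest narrow peak lay 2527 and 2547 bp from Hist1h1t and over 100 kb (114947 and 115021 bp) from Hist1h2aa.

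**Figure D3:**
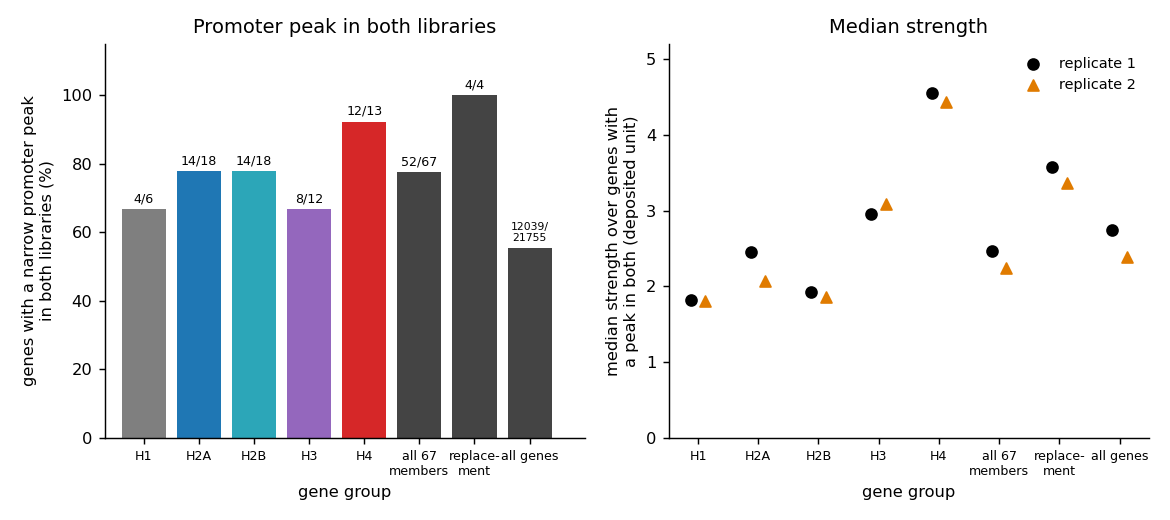
Left, share of genes with a narrow promoter peak in both libraries (percent) by histone type, for all 67 members, the 4 replacement genes and all 21755 protein-coding genes, with the counts above the bars. Right, median strength over the genes with a peak in both (deposited unit) in replicate 1 (circles) and replicate 2 (triangles). H4 has both the highest share of the 5 types, 12 of 13, and the highest median, 4.55 and 4.43.

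At 10 members much of the promoter sequence occurs more than once in the genome. The share of 31-base words that occur once in the genome was computed over the 300 bases around each start, since reads from repeated words have no single place, and how the authors treated such reads is not given in the sources used here. Under 50% of the words were unique at 10 members, of which 3 had a narrow peak in both libraries, against 49 of the 57 other members (86.0%). The part of repeated sequence in this difference was not tested. Hist1h2ao, Hist1h2ap, Hist1h2bq and Hist1h2br had 0% unique words over 1000 bp on either side of the start and no peak, footprint or listed FDR interval in either library. Whether any read was placed at these 4 genes is not known. Hist1h4m and Hist1h4n had 4.06% and 4.01% unique words over that width, and Hist2h3c1, which had no peak, and Hist2h3c2 had 19.3% and 20.3%. Hist2h2aa2, the second strongest member, had 11.5% in its promoter, and whether its strength holds reads from its copy was not tested.

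Of the 11 members without a narrow peak in either library, 5 have under 50% unique promoter words, 3 are testis genes and 1 is Hist1h1d. The remaining genes are Hist1h2af and Hist1h2bh, with 93% and 100% unique promoter words, which had a peak of the broader list in replicate 1 only, at 1.04 and 1.11. The nearest narrow peak of a member counted within the 1000 bp limit lay at most 514 bp from a start in replicate 1 (Hist2h3c2) and 306 bp in replicate 2 (Hist1h3a), and the nearest one outside it 1029 bp (Hist1h2bh) and 1085 bp (Hist2h3c1). At 6 and 9 members the nearest peak lay beyond 1000 bp and within 2000 bp, and with a 2000 bp window 59 members had a peak in both libraries.

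**Figure D4:**
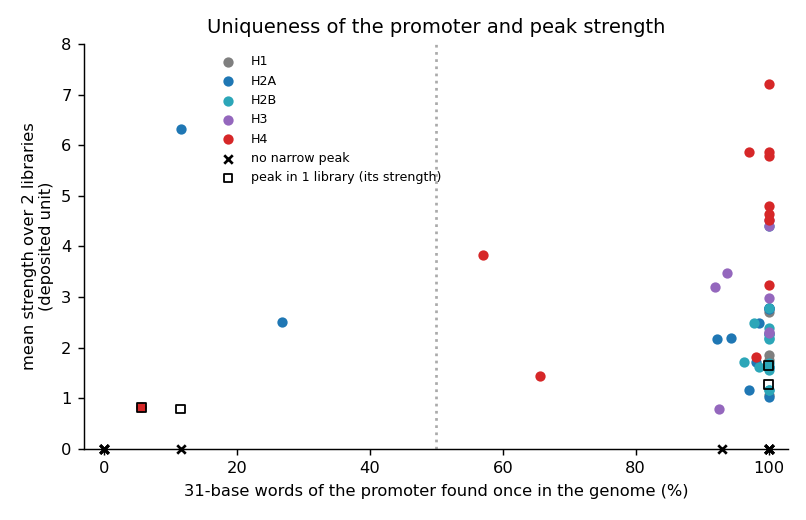
Mean strength over the libraries (vertical axis, deposited unit) against the percent of 31-base words of the promoter that occur once in the genome (horizontal axis), 1 point per member, coloured by type. Crosses are members without a narrow peak, squares those with one in 1 library, and the dotted line is 50%. Below it 3 of 10 members had a peak in both libraries, above it 49 of 57.

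The 4 replacement genes were all open in both libraries and lay above the median of all genes. H2afz, which encodes H2A.Z, was at 4.67 in replicate 1 and 4.47 in replicate 2. H3f3b was at 3.80 and 3.69 and H3f3a at 3.35 and 3.05, 2 genes for the same protein H3.3. H1f0, the linker histone of cells that have stopped dividing, was at 3.30 and 3.05. Their median, 3.57 and 3.37, lay above those of H1, H2A, H2B and H3 and below that of H4 in each library. H3f3b counts through a start downstream of its 5′ end. The midpoint of its strongest peak lay 3401 and 3421 bp downstream of that end. With 4 genes and 2 libraries no test of this difference was made.

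Among the 11 variant histone genes listed, those 4 included, 10 had a narrow promoter peak in both libraries. H2afv, at 6.0 and 4.88, and H2afx, at 5.13 and 5.46, were the strongest. H1fx had one in replicate 2 only, at 1.31. H2afx is also the variant gene whose transcript carries the stem-loop.

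Genes that express and process histone transcripts were open throughout: all 15 of those matched had a promoter peak in both libraries, with a median strength of 3.68, against 2.58 over all genes. The strongest were Nfya, a subunit of NF-Y, at 7.27 and 4.73, and Npat at 6.56 and 5.16. Hinfp was at 5.0 and 3.21 and Slbp at 4.02 and 3.76. The name Symk of that list matched no gene. All 12 histone chaperone genes had a peak in both, the strongest being Npm1, at 6.78 and 4.36, and Ubn1, at 5.58 and 4.14. So did all 17 DNA replication genes, the strongest being Mcm5, at 7.28 and 5.64, and Mcm4, at 5.96 and 4.70. These shares stand beside 55.3% over all genes and were not tested.

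The markers of cell types gave a mixed check of the label. Among cortical neuron markers, Syt1 had a narrow promoter peak in each library (2.47 and 2.35), as had Snap25, Tbr1 and Neurod6, and there was none in both at Gad1, Gad2 (replicate 2 only, 1.02) or Slc17a7. Of astrocyte markers 1 of 3 had one (Gfap, at 1.26 and 1.34), not Aqp4 or Slc1a3 (replicate 2 only, 0.731), and of oligodendrocyte markers 1 of 3 (Olig1, at 1.86 and 1.69), not Mog or Mbp (replicate 1 only, 0.938). None of 2 microglia markers (Csf1r, Cx3cr1) or 2 blood markers (Klf1, Hbb-bt) had one. All 4 dividing-cell markers did, led by Top2a (4.88 and 6.50) and Cdk1 (3.38 and 2.11). Of 2 germ line markers, Dazl had one (1.23 and 1.02) and Ddx4 had none. The share over all protein-coding genes was 55.3%. Lists this short were not tested against it and show little about which cells were present.

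The clusters were dense in peaks. From the first to the last member with 10 kb on each side, Hist1 (2239.1 kb, 54 members and 49 other protein-coding genes) held 110 narrow peaks in replicate 1 and 119 in replicate 2. That is 0.491 and 0.531 peaks per 10 kb, against 0.154 and 0.150 over chromosomes 1 to 19 and X. Its members lie in stretches of 23 and 31 genes with a gap of 1487.4 kb between them. The first stretch held 37 and 44 peaks, 1.06 and 1.26 per 10 kb, and the second 43 and 36, 1.01 and 0.849 per 10 kb. The median strength of members was 1.65 and 1.68 in the first stretch and 2.45 and 2.34 in the second.

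Over the whole Hist1 span, with its gap, peaks at histone gene starts were the smaller part. Of the Hist1 peaks, 48 and 47 lay within 1000 bp of a member's start, and 16 and 17 at starts of other genes only. The other 46 and 55 lay away from any annotated start. Those include the peaks around the coding starts of Hist1h1d, at 1.85 and 2.31, and of Hist1h2be, at 1.44 and 1.59. The annotated starts of these genes lie further upstream. In the first stretch of members, 15 of 37 and 20 of 44 peaks lay at member starts. In the second stretch they were the larger part, 33 of 43 and 27 of 36. RefSeq places 79 tRNA genes in the same span, 34 of them in the first stretch, 3 in the second and the others in the gap. Of the peaks away from starts, 32 of the 46 and 41 of the 55 lay within 200 bp of one. This comparison was added after the peaks were seen. These tRNA peaks had a median strength of 1.79 and 1.71, beside 1.68 and 1.66 for the peaks at member starts. A narrow peak lay within 200 bp of 49.4% and 62.0% of the tRNA genes in Hist1, and of 51.5% and 53.7% of the 324 tRNA genes elsewhere.

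**Figure D5:**
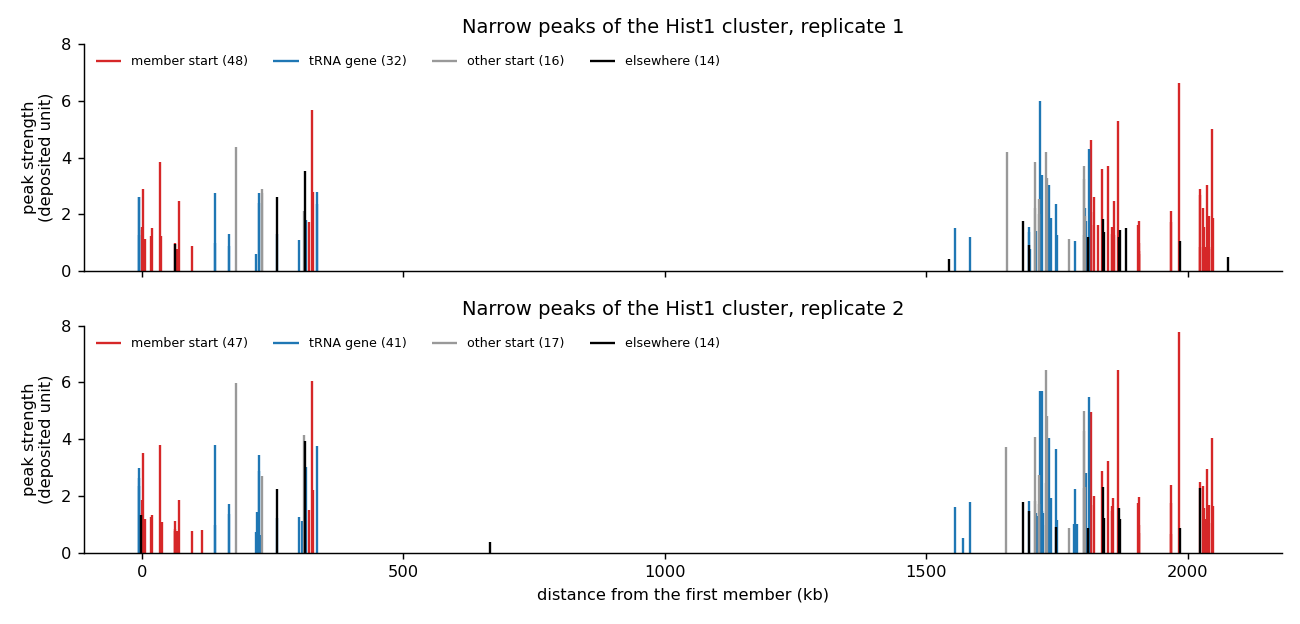
Narrow peaks of the Hist1 cluster, with distance from the first member (horizontal axis, kb) and strength (vertical axis, deposited unit), 1 panel per library. Colours mark peaks at member starts (48 and 47), at tRNA genes away from starts (32 and 41), at other starts (16 and 17) and elsewhere (14 in each). Peaks elsewhere include those around the coding starts of Hist1h1d and Hist1h2be. The gap between the stretches of members is nearly empty next to the first stretch, and many tRNA peaks stand just before the second.

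By the strongest peak in each window, the small clusters were stronger, and they held almost only promoter peaks. Hist2 (70.3 kb, 10 members) held 11 and 12 peaks, 10 and 11 of them at member starts, or 1.57 and 1.71 per 10 kb. Its 8 members with a peak in both libraries had a median strength of 3.54 and 3.65, against 2.11 and 1.94 for the 41 of Hist1. Hist2h2ab, Hist2h2ac and Hist2h2be shared 1 peak of 2.73 and 2.83, whose midpoint lies 1005 and 1025 bp from the start of Hist2h2ab. The Hist2 median thus includes peaks of neighbours, as at Hist2h3b. With the peak nearest to each start, Hist2h2ab was at 2.14 and 2.19, Hist2h2be at 1.62 and 1.31 and Hist2h3b at 2.34 and 2.59. The comparison with Hist1 was not repeated with nearest peaks. With each peak at a member start counted once, the median was 2.47 and 2.42 in Hist2, and 1.68 and 1.66 in Hist1, a smaller gap. Hist3 held 5 and 7 peaks, with Hist3h2ba at 2.49 and 2.27 and Hist3h2a at 2.72 and 2.81. The Hist4 locus held 3 in each library, 2 of them at Hist4h4.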

How the data were processed

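DNase-seq peaks, footprints and FDR intervals of 2 libraries of left cerebral cortex (mm10, per the labels) were analysed, and the reads were not used here. The authors deposited, per library, 2 peak lists with a signal value per peak (here strength), a footprint list and a table of FDR values (a kind of q-value). Peaks were derived from each library's alignments and footprints from the FDR table and alignments, per the deposited notes; for the caller, the aligner and the scaling of values, a description was not given in the sources used here. In replicate 1 and replicate 2 there were 40705 and 39508 narrow peaks, each with an FDR interval at 0.001 or less, 71210 and 72217 broader-list peaks, each with one at 0.05 or less, and 166128 and 174394 footprints. Read depth is unknown, so no counting interval is given.

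Overlaps (at least 1 bp), medians and word counts were computed with Python 3.11.15, pandas 2.3.3 and NumPy 2.4.6, and checked on simulated peaks, where status and strength were recovered at 838 of 838 genes. With 1 group of 2 libraries no test was possible, and p-values were not computed. Members and lists were chosen with earlier results of these data known. Values in full are given for the 8 strongest and 4 weakest members with a peak in both libraries, all members with a peak in 1 library, all Hist2, Hist3, Hist4, testis and replacement genes, and of other lists the 2 strongest and all without a peak in both; others named were chosen after their values were seen. 1 cell type marker is not reported here.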

Additional observations from a re-analysis of the deposited data

How the results depend on the processing

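Of 56 alternative values, 54 were within 1.5 times the reported one for a count, or within the SD between libraries for a strength or ratio. These limits are wide: with 67 members, the count of 52 could not have risen past its limit. The SD comes from the same 2 libraries, so leaving 1 out is a weak check of a strength. The count of members with a promoter peak in both libraries ranged from 43 (each peak given only to its nearest start, against 50.5% of all genes) to 59 (2000 bp window, against 56.9% of all genes). The median member strength of 2.30 moved to 2.51 with the 2000 bp window, where more peaks of neighbours are counted. Joining peaks within 200 bp took Hist3 from a mean of 6 peaks to 3.5, and left the other clusters within 1.5 times. The broader list gave means of 149 peaks in Hist1 (114.5 in the narrow list), 16 in Hist2 (11.5) and 9 in Hist3. Leaving out each library in turn gave 53 to 55 members with a peak, 56 to 57 with a footprint, a median strength of 2.21 to 2.45, an H4 ratio of 2.05 in each, and 110 to 119 peaks in Hist1, 11 to 12 in Hist2 and 5 to 7 in Hist3. No paired analysis was possible because there is 1 group. Strength of repeated promoters and of peaks shared by neighbours is the least certain.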

Other observations

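Members differed from most genes in how the libraries compared. Over the 12039 genes with a promoter peak in both libraries, strength in replicate 2 was a median of 0.887 times that in replicate 1, and it was higher in replicate 2 at 26.5% of them. Among the 52 members the median ratio was 1.01, and replicate 2 was higher at 27 (51.9%). Counting each strongest peak once left 40 members, a ratio of 1.01 and 52.5%. At the 18 head-to-head members the median ratio was 0.894, near that of all genes, and at the 34 other members 1.02. By place, it was 0.894 in the first Hist1 stretch, 1 in the second and 1.04 in Hist2. The strongest member, Hist1h4c (6.63 and 7.76), had a ratio above 1, and Nfya (7.27 and 4.73), outside the clusters, one below 1. Members are poorer in GC than most genes. The median ratio was 0.900 at 819 genes with a promoter GC content under 50%, 0.887 at 3293 genes from 50 to 60% and 0.875 at 5329 genes of 60% or more. The part of GC content in this difference was not tested, nor was the difference itself.

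The annotated start of Hist1h2be lies 35168 bp from its coding sequence, beside Hist1h1e. Its peak of 1.64 and 1.76 is at that distant start. Around its coding start the values were 1.44 and 1.59.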
